A study of Drosophila melanogaster with 12 samples.

Results

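Homeobox genes encode transcription factors that bind DNA through a homeodomain and set the identity of body segments, tissues and cell types. The set described here held 41 such genes of Drosophila melanogaster, chosen by name, among 16774 genes in the table. It comprised the 8 Hox genes, 3 further homeobox genes of the Antennapedia complex, and regulators of segmentation, head, gut, muscle, nervous system, eye and limb. All 41 were found, in 98 transcript rows. Where a count is given below of 40 or 41 homeobox genes, it is of this set, and other homeobox genes of the fly are given at the end. No measured value entered the rule for the set, but the set was chosen with earlier results of these data known. The DNA bound by Egg had been collected by chromatin immunoprecipitation and sequencing (ChIP-seq) from cultured ovarian somatic cells (OSCs) that were fixed with formaldehyde 4 days into a knockdown. Egg, or Eggless, is the fly SETDB1, an enzyme that places methyl groups on lysine 9 of histone H3 (H3K9). In control cells the knockdown was aimed at EGFP, a protein that is foreign to the fly (siEGFP), and in the others Egg itself was the target (siEgg). Each knockdown had an input library of unprecipitated DNA. The labels list 2 samples in each of these 4 groups, while the table gives 1 column a group with no replicate number, called a library below, so a column could be 1 sample or a pool of both. The siPiwi and siWde samples were not analysed here.

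Many homeobox genes are textbook targets of Polycomb group proteins, which keep them silent outside their proper domain through methylation of lysine 27 of histone H3. That mark forms a kind of repressed chromatin separate from the H3K9-methylated heterochromatin in which Egg acts. OSCs come from the somatic layer of the ovary, and most Hox and neural regulators are not part of their known identity. The libraries hold DNA, so neither expression of these genes nor the loss of Egg could be read from them.

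With 1 library per group there was no spread between replicates. Each ratio is given with a 95% counting interval, which covers the sampling of reads only, and each comparison is between libraries. The input libraries held 2183061 (siEGFP) and 2293964 (siEgg) reads and the ChIP libraries 1796866 and 1698148, recovered from the deposited values, so equal read numbers mean a slightly higher level in the ChIP. A gene was tested when 2 or more libraries held 10 reads or more of it and an RPKM above the pseudocount, as 40 of the 41 did. The exception was btn, grouped here with the nervous system genes, with a row of 477 bases, with 3 and 2 reads in the siEGFP input and ChIP and 3 in each siEgg library. In the siEGFP input the tested genes had 15 to 103 reads with a median of 50, against a median of 28 over all 12557 genes tested, and in the siEGFP ChIP they had 6 to 104.

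In siEGFP cells the Egg ChIP over input showed no enriched gene among the 40 of the set that were tested. The values cover transcript rows, not whole genes. Over the tested genes of the set the median row length was 2491 bases, and the median gene span was 9461.5 bases. At Antp the rows had a mean of 4236.6 bases in a span of 102976. Introns and flanking DNA thus appear not to be counted, and Egg there was not assessed. A gene was called enriched or depleted when log2 of ChIP over input RPKM, with 0.6 RPKM added to each, was at least 1 in size and its interval excluded 0. By this rule 0 of 40 homeobox genes were enriched, where 5.65% of all genes were, a share that amounts to 2.26 of 40 genes. Depletion was called at 4 of 40 (10%), beside 7.7% of all genes or 3.08 of 40. The shares are near that background. After centring on the median gene 9.28% of all genes were enriched and 2.55% depleted, with 0 and 2 genes of the set. At any size, 0 of the 40 had an interval wholly above 0 and 11 wholly below, beside 8.51% and 18.7% of all genes. The median log2 ratio was -0.40 over the homeobox genes and -0.30 over all genes, and 22 of the 40 lay below the median gene. Their summed reads, 2018 in the input and 1329 in the ChIP, gave -0.32 (-0.42 to -0.22), against -0.17 (-0.17 to -0.16) for all genes. The individual ratios ran from -1.53 to 0.45 with a standard deviation of 0.50, against 0.75 over all genes, which had fewer reads. The median width of an interval was 1.44 on the log2 scale, so small differences at single genes were not detectable at this depth.

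**Figure D1:**
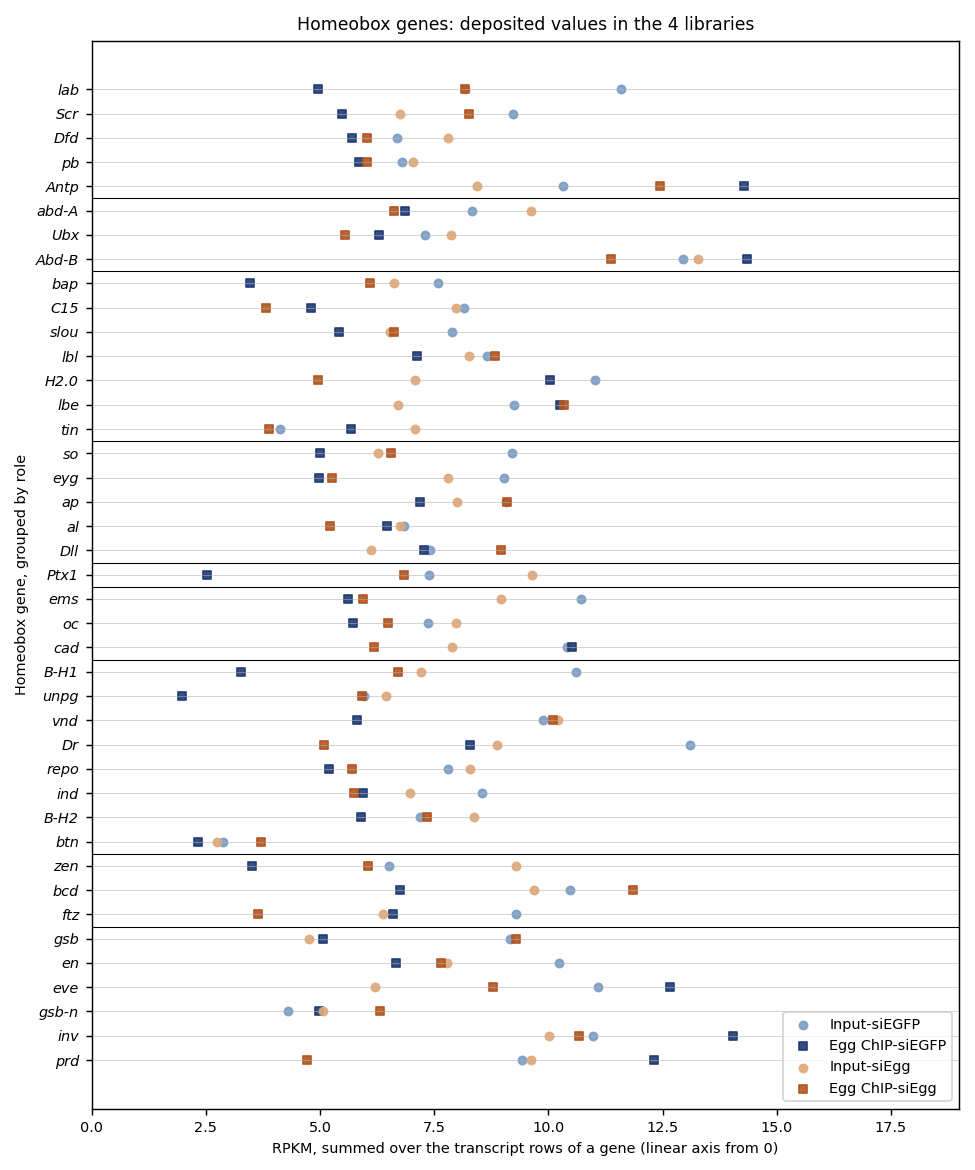
RPKM of the 41 homeobox genes (vertical axis, grouped by role) in the 4 libraries, summed over the transcript rows of each gene; circles are inputs, squares are Egg ChIPs, blue is siEGFP and orange is siEgg, 1 library each. Abd-B and Antp have the highest siEGFP ChIP values, and the siEGFP ChIP values of B-H1, Ptx1 and unpg lie far to the left of their siEGFP inputs.

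The 4 depleted genes were regulators of neurons, gut and head. B-H1, 1 of the pair of Bar genes that act in eye and sensory organs, had 63 input and 16 ChIP reads in siEGFP and 45 and 31 in siEgg. Its siEGFP ratio was -1.53 (-2.59 to -0.89), while in siEgg it was -0.10 (-0.81 to 0.59). The siEGFP ChIP was the low library of the 4. Ptx1, a gene of the midgut and nervous system, had 52 input and 14 ChIP reads in siEGFP and 71 and 37 in siEgg. Its ratios were -1.36 (-2.58 to -0.74) and -0.46 (-1.12 to 0.09). Here too the siEGFP ChIP had the fewest reads, and both ChIPs lay below both inputs. The gene unplugged (unpg), expressed in neural and tracheal cells, had 22 and 6 reads in siEGFP and 25 and 17 in siEgg, with ratios of -1.35 (-3.19 to -0.25) and -0.11 (-1.10 to 0.82). The Hox gene labial (lab), which acts in the head and midgut, had 56 and 21 reads in siEGFP and 43 and 31 in siEgg, with ratios of -1.13 (-1.93 to -0.39) and 0.00 (-0.75 to 0.66). None of the 4 was depleted in siEgg.

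Of these calls only the depletion of B-H1 held under all 10 alternative settings, with values from -1.70 to -1.12. With the pseudocount 5 times larger lab came to -0.87, Ptx1 to -0.91 and unpg to -0.85, which ended their calls, as quantile scaling did at -0.96, -0.86 and -0.80. Centring on the median gene moved lab to -0.83 and unpg to -1.05, and pooling both inputs moved lab to -0.91, again with the calls lost. Ptx1 without its row NM_206591, which had 21 input and 2 ChIP reads, was at -0.91 (-2.18 to -0.09), under the threshold.

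**Figure D2:**
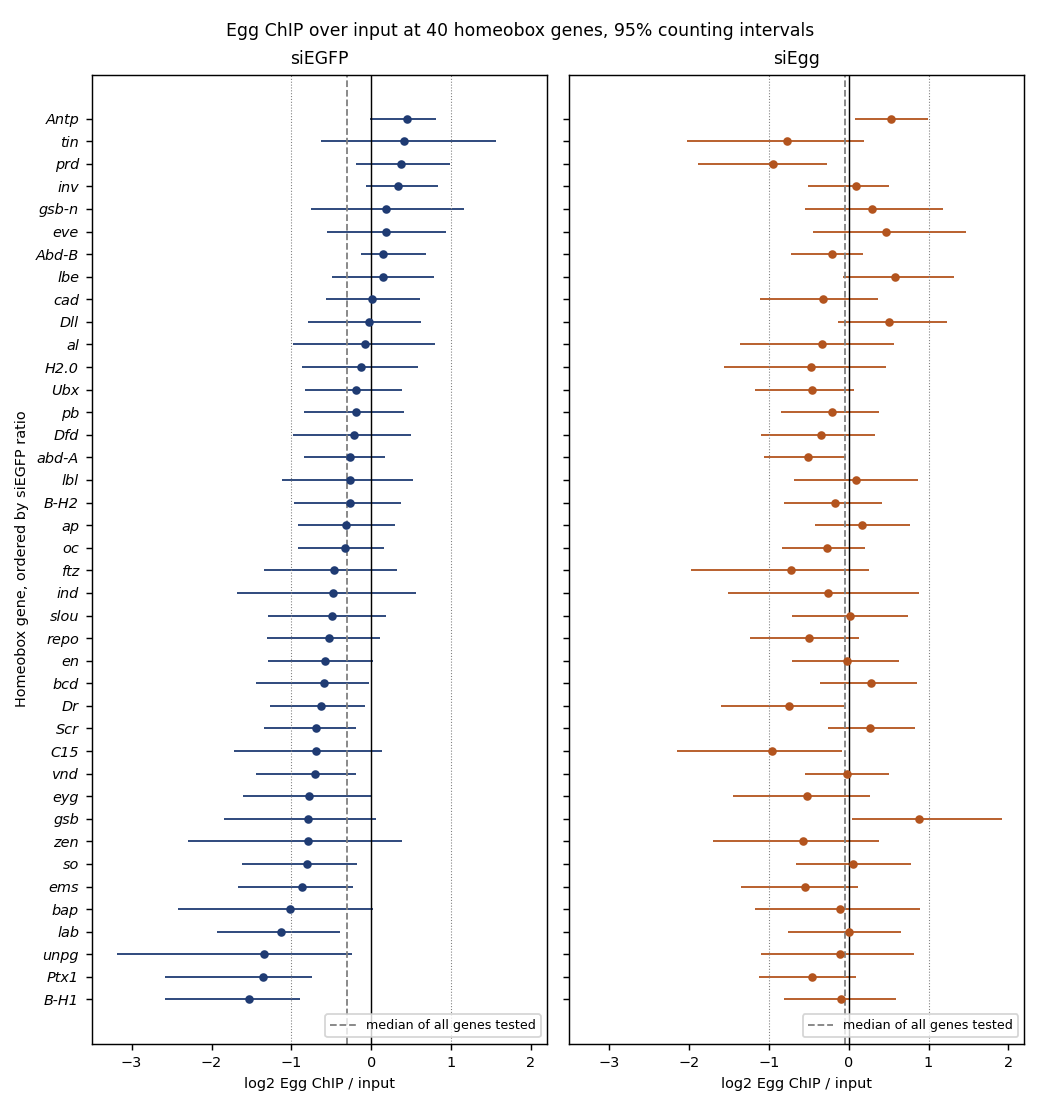
Log2 Egg ChIP over input of the 40 tested homeobox genes in siEGFP (left) and siEgg (right), ordered by the siEGFP ratio; points are the ratios, lines their 95% counting intervals, dashed lines the median of all genes tested and dotted lines the 2-fold thresholds. The siEGFP ratios run from -1.53 for B-H1 to 0.45 for Antp, and in siEgg B-H1 lies at -0.10, unpg at -0.11 and lab at 0.00, with Ptx1 lower at -0.46.

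The 8 Hox genes, which give each body region its identity, had a median siEGFP ratio of -0.20, and 6 of 8 lay below 0. Their summed reads were 574 in the input and 431 in the ChIP, a ratio of -0.13 (-0.32 to 0.05). Antennapedia (Antp), the gene for thoracic identity at 3R:6896253-6999228 (dm6), had 96 and 104 reads in siEGFP and 81 and 87 in siEgg. It had the highest siEGFP ratio of the 40 genes, 0.45 (-0.02 to 0.81), and 0.53 (0.08 to 0.99) in siEgg, so its ratio did not fall with the knockdown. Abdominal-B (Abd-B), which acts in the most posterior segments, had 103 reads in both siEGFP libraries and 112 input and 69 ChIP reads in siEgg. Its ratios were 0.14 (-0.13 to 0.69) and -0.21 (-0.72 to 0.18). Sex combs reduced (Scr), a gene of the head and first thoracic segment, had 82 and 40 reads in siEGFP and 63 and 57 in siEgg. Its ratio of -0.69 (-1.34 to -0.19) in siEGFP stood against 0.27 (-0.25 to 0.83) in siEgg, a change of 0.96 (0.21 to 1.71) that stayed just under 2-fold.

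The remaining 4 Hox genes had intervals that included 0 in siEGFP. Ultrabithorax (Ubx), the gene of the third thoracic segment, had 58 and 41 reads in siEGFP and 69 and 35 in siEgg, with ratios of -0.20 and -0.46. The gene abd-A, of the abdomen, had 84 and 55 reads and then 100 and 51, with ratios of -0.26 and -0.50 (-1.05 to -0.04). Proboscipedia (pb), a gene of the mouthparts, had 55 and 39 reads and then 60 and 38, with ratios of -0.20 and -0.21. Deformed (Dfd), a head gene, had 40 and 28 reads and then 49 and 28, with ratios of -0.21 and -0.34. Each of these ChIP values lay below its own input in both knockdowns.

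Other homeobox genes of the Antennapedia complex lack a Hox function in the fly. These were bicoid (bcd), the maternal head determinant, zerknullt (zen), a gene of dorsal and extraembryonic tissue, and fushi tarazu (ftz), a pair-rule gene. Their siEGFP ratios were -0.59, -0.79 and -0.46, and in siEgg they had 0.28, -0.57 and -0.72. None passed the threshold.

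All 7 genes grouped under the nervous system and tested lay below 0 in siEGFP, where 8537 of all 12557 genes did, with a median of -0.62 and a sum of 349 input and 166 ChIP reads, a ratio of -0.79 (-1.07 to -0.52). In siEgg the same sum was -0.27 (-0.53 to -0.01). Besides B-H1 and unpg they included vnd at -0.71 (-1.45 to -0.19) and Dr at -0.62 (-1.27 to -0.08), which pattern the columns of the embryonic nerve cord, repo, the glial regulator, at -0.53, and ind, also a column gene, at -0.49. The 6 segmentation genes had a median of 0.19 and a summed ratio of 0.06 (-0.19 to 0.32). The 5 genes of limb and eye (Dll, ap, al, eyg and so) lay between -0.81 and -0.03, and the 3 of head and posterior pattern (oc, ems and cad) between -0.87 and 0.01. The 7 grouped under muscle and mesoderm, which include C15, a gene of the leg tip, lay between -1.01 and 0.41. Roles were assigned by hand, and differences between roles were not tested. The nervous system values are of these 7 genes only. Of 47 tested homeobox genes outside the set, 34 lay below 0 in siEGFP and 13 above. Intervals lay wholly below 0 for 14 of them and wholly above for 3, beside 18.7% and 8.51% of all genes. The neural and hindgut gene otp, also outside the set, was at 1.76.

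After Egg knockdown none of the 40 homeobox genes was enriched or depleted, beside 1.28% and 1.17% of all genes. Intervals wholly above 0 were found for 2 of 40 (Antp and gsb) and wholly below for 4, beside 2.85% and 3.27%. The median ratio was -0.19 against -0.04 for all genes, and 24 of 40 lay below the median gene. The summed reads, 1929 input and 1294 ChIP, gave -0.14 (-0.24 to -0.04) against -0.03 (-0.04 to -0.03). The ratios ran from -0.96 at C15, a gene of the leg tip with 34 input and 12 ChIP reads, to 0.88 at gooseberry (gsb). Their standard deviation fell from 0.50 to 0.43, and that of all genes from 0.75 to 0.48.

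The change from siEGFP to siEgg was centred where that of all genes was. The median change was 0.22 for both, and 20 of 40 homeobox genes lay above the median gene. A rise of at least 2-fold with an interval above 0 was called at 3 of 40 (7.5%), beside 5.35% of all genes, and a fall at 1 of 40 (2.5%), beside 3.43%. At any size 4 of 40 had an interval above 0 and 1 below, beside 8.14% and 4.18%. These shares are again near the background. The genes that rose were gsb, B-H1 and lab, and the gene that fell was paired (prd). Of the 4 genes depleted in siEGFP, B-H1 and lab rose, while unpg at 1.24 (-0.30 to 2.77) and Ptx1 at 0.90 (-0.12 to 1.91) had intervals that included 0. The siEGFP ratio and the change share the siEGFP libraries, so they are not independent readings.

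Paired (prd), a pair-rule gene on 2L that helps to lay down alternate segments, had 49 input and 53 ChIP reads in siEGFP and 53 and 19 in siEgg. The inputs were alike and the siEgg ChIP was the low library. Its ratio went from 0.37 (-0.19 to 0.98) to -0.94 (-1.89 to -0.27), a change of -1.31 (-2.25 to -0.38). The call held under 11 alternative settings, from -1.53 to -1.01. It had not been enriched in siEGFP. The fall came mostly from 1 of its 2 transcript rows, NM_164990, with 27 and 7 ChIP reads, and without that row the change was -0.59 (-1.84 to 0.66), which ended the call.

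Gooseberry (gsb), a segment-polarity gene on 2R, had 33 and 15 reads in siEGFP and 18 and 26 in siEgg. The ratio went from -0.79 (-1.84 to 0.06) to 0.88 (0.04 to 1.92), a change of 1.67 (0.45 to 2.89). The input moved with it, by -0.87 (-1.86 to -0.08), and with both inputs pooled the change was 0.80, and the call was lost. The rises of B-H1, 1.44 (0.42 to 2.46), and lab, 1.13 (0.16 to 2.11), went to 0.92 and 0.66 with pooled inputs and were also lost. A pooled input is the same in both ratios and cancels from the change, which is then that of the ChIP libraries alone. By this measure the 2 genes that rose were unpg at 1.34 and Ptx1 at 1.26. Which genes rose thus depended on whether each ChIP was set against its own input. The lab rise was lost under 5 of 11 settings in all, of which pooled inputs and the ChIP libraries alone give the same change. The inputs of B-H1 and lab had moved by -0.52 and -0.48, with intervals that included 0. None of the 40 differed by 2-fold between the inputs with an interval excluding 0, where 0.35% of all genes were higher and 1.1% lower in siEgg.

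**Figure D3:**
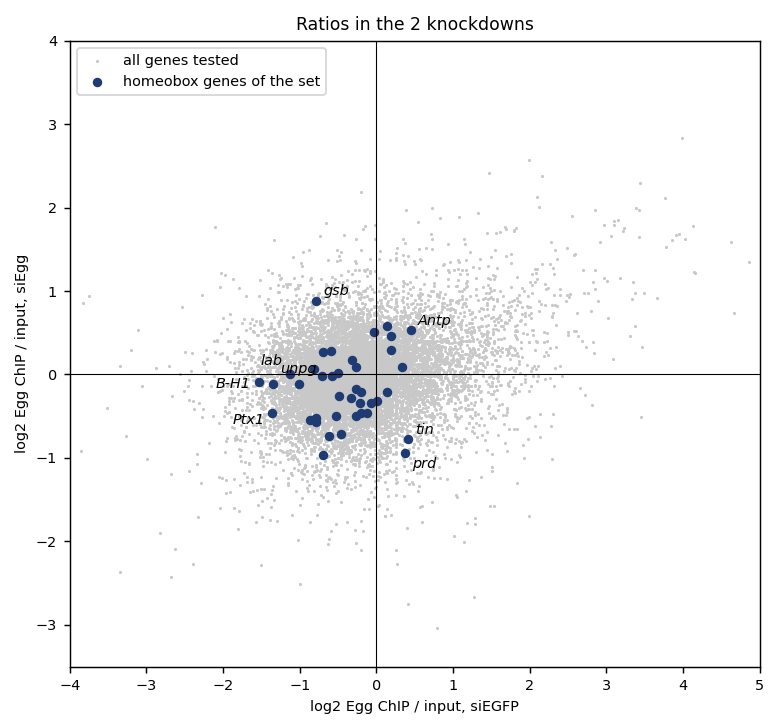
Log2 Egg ChIP over input in siEGFP (horizontal) and siEgg (vertical) for all genes tested (grey) and the 40 tested homeobox genes of the set (blue), 1 point per gene. No blue point lies to the right of 0.45, gsb has the highest siEgg value at 0.88, and prd lies at 0.37 in siEGFP and -0.94 in siEgg.

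Neighbouring paralogues were compared side by side, with no test of their difference. Bar gene B-H2, in the same region of the X as B-H1, had 49 and 33 reads in siEGFP and 60 and 39 in siEgg. Its ratio of -0.26 (-0.97 to 0.38) stood beside -1.53 (-2.59 to -0.89) for B-H1, and the intervals overlap. Gooseberry-neuro (gsb-n), next to gsb, had 21 and 20 reads in siEGFP and 26 and 24 in siEgg, with ratios of 0.19 and 0.29, beside -0.79 and 0.88 at gsb. Engrailed (en), which marks posterior compartments, had 60 and 32 reads in siEGFP and 47 and 34 in siEgg, and ratios of -0.58 (-1.29 to 0.02) and -0.02. Its neighbour invected (inv) had 81 and 87 reads and then 81 and 60, with ratios of 0.34 (-0.07 to 0.84) and 0.09. The ladybird genes lbe and lbl, of muscle and heart, had 46 and 42 and 34 and 23 reads in siEGFP, with ratios of 0.14 and -0.26, and 35 and 40 and 34 and 27 in siEgg, with 0.58 and 0.09. How the authors placed reads from stretches that paralogues share is not given in the sources used here.

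Rows of the same gene differed inside Antp and Abd-B. For single rows the ratio of reads was used with no pseudocount. One of the 11 Antp rows, NM_206454 of 4111 bases, had 27 input and 66 ChIP reads in siEGFP, a ratio of 1.57 (0.90 to 2.27). In siEgg it had 25 and 30 reads and 0.70 (-0.12 to 1.52), a change of -0.87 (-1.87 to 0.12) whose interval includes 0. The other 10 rows of Antp together had 69 and 38 reads in siEGFP and 56 and 57 in siEgg, or -0.41 (-1.19 to 0.01) and 0.45 (-0.10 to 1.02) by the rule for genes. Without NM_206454 the change of Antp was 0.87 (0.09 to 1.64), under 2-fold. Its siEGFP ratio was then below 0 with an interval that included 0, and its high place in the set rests on that row. It was the only enriched row among the 76 homeobox rows with enough reads (1.32%), beside 5.82% of all transcript rows, and it was singled out after its value was seen.

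Abd-B showed a similar split. Its row NM_080157 of 4741 bases had 47 and 69 reads in siEGFP and 54 and 28 in siEgg. The ratio went from 0.83 (0.28 to 1.40), under 2-fold, to -0.51 (-1.23 to 0.17), a fall of -1.35 (-2.19 to -0.51) with inputs that were close to each other. The other 5 rows had 56 and 34 reads and then 58 and 41, with ratios of -0.40 and -0.07 and a change of 0.33 (-0.51 to 1.16). Over all homeobox rows tested, 3 fell at least 2-fold (3.95%, beside 4.04% of all rows), namely this row, NM_164990 of prd and NM_057345 of abd-A, where ChIP reads went from 17 to 5. Depletion was called at 8 of the 76 rows in siEGFP (10.5%, beside 10.4% of all rows). In siEgg 0 rows were enriched and 3 depleted (3.95%), beside 1.99% and 2.14% of all rows, and 6 rows rose (7.89%), beside 8.24%. Transcripts of a gene overlap, and how the authors shared reads among them is not given in the sources used here, so rows are not independent of each other.

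**Figure D4:**
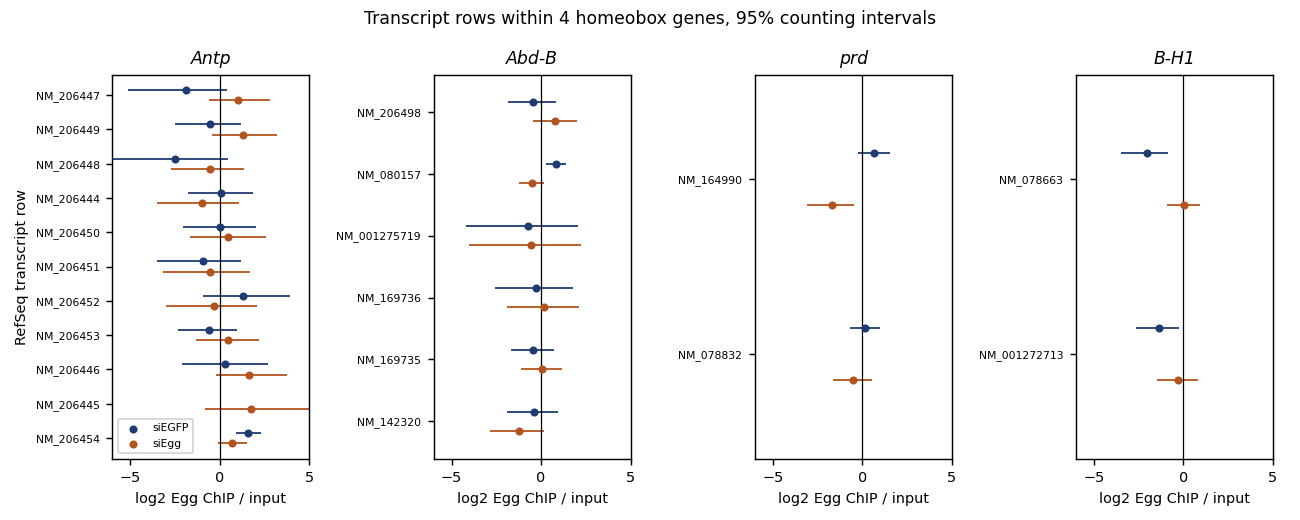
Log2 ratio of Egg ChIP to input reads for each RefSeq transcript row (vertical axis) of Antp, Abd-B, prd and B-H1, in siEGFP (blue) and siEgg (orange), with 95% counting intervals cut at the edges of the axis; a row with 0 ChIP reads has no point. NM_206454 of Antp lies above 0 in siEGFP at 1.57 and NM_080157 of Abd-B goes from 0.83 to -0.51, while both B-H1 rows are low in siEGFP.

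The reads in the transcript rows of the homeobox genes were also summed over each Hox cluster, without the DNA between the rows. The 8 genes of the set in the Antennapedia complex, which spans 337.8 kb of 3R, went from 288 to 310 ChIP reads with 437 and 400 in the inputs, a change of 0.39 (0.08 to 0.69) whose interval holds the 0.13 of all genes. The 3 genes of the bithorax complex, over 315.6 kb of the same arm, went from 199 to 155 with 245 and 281 in the inputs, a change of -0.41 (-0.80 to -0.01). That interval lies below the 0.13 of all genes. The changes of the 3 bithorax genes lay between -0.35 and -0.24, with no call. In the Antennapedia complex 2 of 8 genes, lab and Scr, had intervals above 0, beside 8.14% of all genes. Most of the ChIP reads lost from the bithorax sum were those of NM_080157 of Abd-B, which went from 69 to 28. The 6 other genes tested inside the bithorax complex went the other way as a sum, with 146 and 187 ChIP reads and 234 and 236 in the inputs, a change of 0.50 (0.09 to 0.90), so the cluster did not move as a whole. The 13 others inside the Antennapedia complex had a summed change of 0.57 (0.15 to 0.99). Their interval lies above the 0.13 of all genes, while that of the 6 others in the bithorax complex holds it. These are differences between libraries, with no spread between samples to set them against.

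Genes of other kinds lie between the homeobox genes. Inside the Antennapedia complex 13 genes of other kinds had enough reads, with a median siEGFP ratio of -0.75. Of these, 4 were depleted (30.8%, beside 7.7% of all genes), among them the cell-surface gene Amalgam (Ama) at -2.02 (-3.48 to -1.08) which overlaps lncRNA:CR45593, and the cuticle gene Ccp84Ac at -1.84, and lncRNA:CR45559, just outside Antp, was the 1 enriched gene (7.69%, beside 5.65%), at 1.23 (0.22 to 2.41) with 12 input and 24 ChIP reads. The noncoding gene lncRNA:CR43252, inside the span of Antp, had 4 input and 11 ChIP reads and was not tested. Inside the bithorax complex 6 noncoding or other genes had a median of -0.73 and no call, with lncRNA:bxd and lncRNA:iab4 both at -0.73 and lncRNA:iab8 at 0.38. Within 20 kb of a homeobox gene, 157 other genes had a median of -0.33, with 9 enriched and 13 depleted (5.73% and 8.28%), close to all genes.

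**Figure D5:**
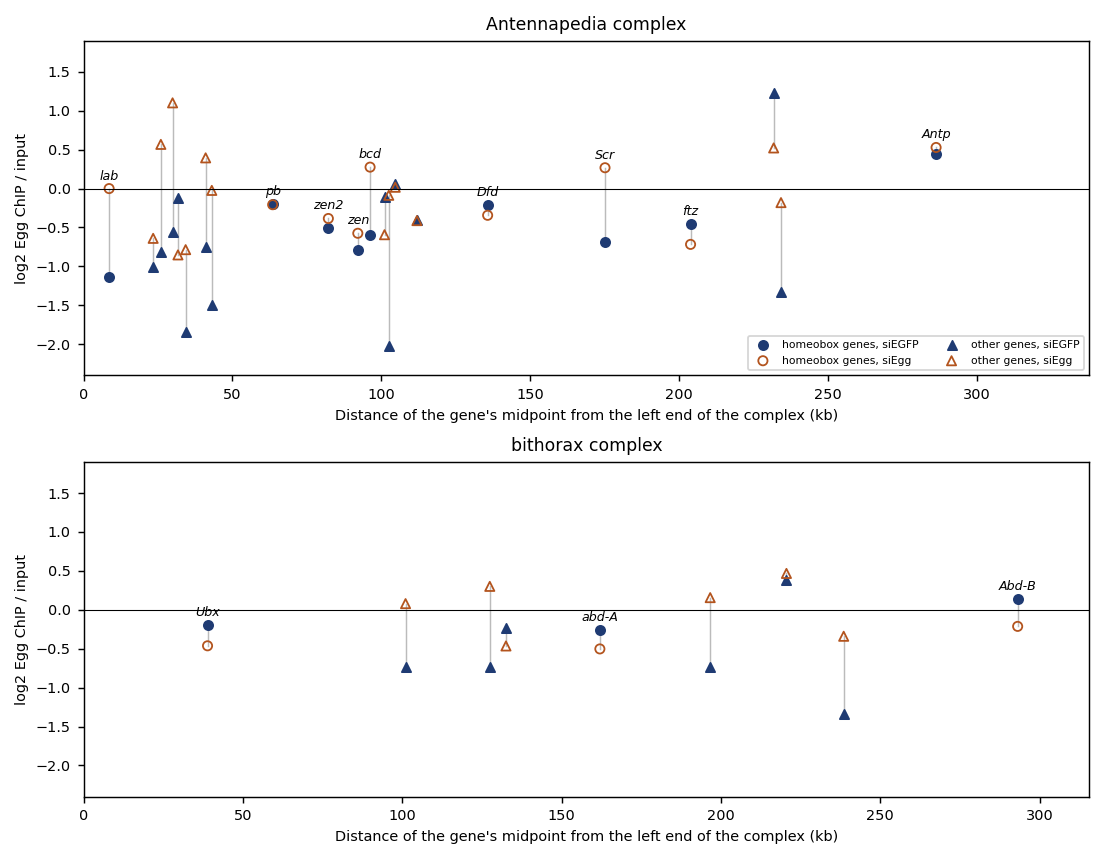
Log2 Egg ChIP over input of the tested genes of the Antennapedia (top) and bithorax (bottom) complexes against the distance of the gene's midpoint from the left end of the complex in kb; circles are homeobox genes, triangles other genes, filled blue is siEGFP and open orange siEgg, with a grey line joining the values of a gene. Most siEGFP values lie below 0 along both complexes, and the highest is the noncoding gene at 1.23 beside Antp.

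Further lists of genes were set beside the 40, whose median in siEGFP was -0.40. A list of 49 other homeobox genes, 47 of them tested, had a median of -0.37 in siEGFP, with 2 enriched and 3 depleted (4.26% and 6.38%). The largest ratio was that of orthopedia (otp), a neural and hindgut gene with 63 input and 178 ChIP reads, at 1.76 (1.36 to 2.22), which fell by 1.44 on the log2 scale. It was followed by zfh1, a zinc finger and homeodomain gene of mesoderm and gonad, depleted at -1.22 (-1.96 to -0.79), and achi, enriched at 1.21 (0.63 to 1.91). The gene achi has a near-identical neighbour, vis, so the split of reads between them is uncertain. Of 43 other developmental regulators known as Polycomb targets, 0 were enriched and 5 depleted (11.6%), with a median of -0.42. The largest was bifid (bi) at -1.45 (-2.09 to -1.03), followed by snail (sna) at -1.29 and ase at -1.17. Of 24 genes that encode Polycomb and Trithorax group proteins, pho, on chromosome 4, at 1.81 (1.23 to 2.81) and Trl, the gene of GAGA factor, at 1.16 (0.50 to 1.88) were enriched, and both fell in siEgg, by 1.34 and 1.29 on the log2 scale. The 9 Egg and HP1 genes had a median of -0.08 with HP1c enriched at 1.36, and 9 housekeeping genes had 0.03 with Gapdh1 enriched at 1.01. Genes of these lists were named by the size of their siEGFP ratio, which the change subtracts. Their falls and rises are therefore not independent of that choice. Among the depleted genes named, zfh1 rose by 1.14 and sna by 1.58, both called. Rises of 1.08 at ase and 0.69 at bi were not called.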

How the data were processed

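ChIP and input reads were mapped with Bowtie2 2.2.4 to dm6, per the submitters' processing notes; counting and pooling of replicates are not given in the sources used here. The deposited values were taken as RPKM (read number relative to row length and to depth) from their pattern, since the file header names no unit. Whole reads were recovered from them. Rows with equal reads gave the ratios of the library depths, and the smallest whole numbers with those ratios were taken as depths, where a common multiple would give the same values. Whole numbers were reached within 0.0001 reads for all 34762 rows that were not 0 throughout, and 4929 recovered lengths equalled the span of the gene. A row whose reads and length share a factor comes out too small. Rows were matched to genes by RefSeq accession (34925 rows) or by symbol or synonym (161) and summed per gene, 241 kept their own name, and 740 were 0 throughout. The 98 homeobox rows all matched. Coordinates are those of RefSeq for the same assembly.

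For the log2 ratios, 0.6 RPKM was added to both values, which is the median siEGFP input of genes with 1 row (6.17) divided by 10, rounded. Such ratios understate changes of low genes. Intervals of ratios were Clopper-Pearson on the split of reads, and a change had its standard error from reciprocal reads, each raised by 0.5. The intervals of ratios used summed reads with no pseudocount and no row lengths. A gene's ratio, from RPKM with the pseudocount, is therefore not always near the centre of its interval, as at Abd-B. Library depth came from the recovered reads, of which 33.6% to 36.8% fell in the table. PCR copies are not independent molecules, so intervals cover counting error only. The planned tests across samples could not be made with 1 column per group, and no p-value was computed. Recovery of reads, and the intervals and calls of a ChIP over its input, were tested on simulated data with another pseudocount. The intervals and calls of the change were not simulated. The gene set, the lists and the roles were chosen with earlier results of these data known. Values in all libraries are given for called genes, Hox genes and neighbouring paralogues, and of other lists at most 3 called genes, the largest first. Of the listed genes, fd64A, calypso and RpII140 were not found under these names. Python 3.11.15, numpy 2.4.6, pandas 2.3.3 and scipy 1.17.1 were used.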

Additional observations from a re-analysis of the deposited data

How the results depend on the processing

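No paired analysis was possible because the columns carry no replicate number, and no replicate could be left out for the same reason. Among the 40 tested genes of the set, 0 were enriched in siEGFP under each of the 10 alternatives tried. The count of depleted genes in siEGFP was 4, but 1 with the pseudocount 5 times larger, 2 after centring on the median gene, 1 with quantile scaling and 11 at a 1.5-fold threshold, where the shares of all genes were 2.41%, 2.55%, 2.2% and 16.1%. In siEgg 1 gene was enriched with quantile scaling and at 1.5-fold. Depletion in siEgg was called at 2 genes with the pseudocount 5 times smaller, where 1.33% of all genes were depleted. It was called at 2 with quantile scaling, 1 with pooled inputs, 3 at 1.5-fold and 2 with the ratio of summed reads. The ratio of summed reads was an alternative added after seeing the data. Shares of all genes for the other siEgg counts are not given here, so those counts cannot be set against a background. The 3 rises became 5 with the smaller pseudocount, where 7.46% of all genes rose, 5 with summed reads and 4 at 1.5-fold. They became 2 with the larger pseudocount, where only 0.733% of all genes rose, so the set lay above the background there. With at least 20 input reads 2 of 36 rose, beside 5.87%. Centring, quantile scaling, pooled inputs and the ChIP libraries alone also gave 2. The last 2 settings give the same changes, because a shared input cancels. Over the settings the share of all genes that rose ran from 0.733% to 8.02%. The 1 fall became 2 after centring and 2 with quantile scaling, for which the shares of all genes are not given here. The homeobox median minus that of all genes in siEGFP was -0.10, and 0.0431 when at least 20 reads were required in each input. Centring and quantile scaling moved the all-gene median in siEGFP from -0.30 to 0.00 and -0.05, and the homeobox median from -0.40 to -0.10 and -0.23. The cause of these shifts was not tested. Few reads per gene and 1 column per group limit every value. Leaving out each transcript row in turn was also added after seeing the data. Without either row lab lost a call: without NM_001260024 its siEGFP ratio was -0.82, and without NM_057265 its change was 1.52 with an interval from -0.29. B-H1 without NM_078663 kept its depletion at -1.12 and its change of 0.87 was no longer called.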
